A study of Mus musculus with 11 samples.

Results

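The 10 genes described here encode subunits of the Polycomb repressive complexes, the chromatin regulators that keep developmental genes silent in embryonic stem (ES) cells. They are Ezh1, Ezh2, Eed and Suz12, Jarid2, Aebp2, Mtf2 and Phf19, and Cbx2 and Cbx7. The list was taken as given, and its genes were found on the array through the RefSeq accession of each probe, which gave 14 probes for the 10 genes among 20960 named genes. All 10 were among the 16275 genes tested.

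Mouse ES cells were passaged 3 or more times in 1 of 3 media, and each sample was hybridised to 1 Agilent one-colour array, 3 for serum/LIF, 5 for 2i/LIF and 3 for KOSR/LIF. LIF (leukaemia inhibitory factor) was present in all 3 media. In addition, 2i blocks the kinases MEK and GSK3, and in KOSR medium a defined supplement takes the place of serum. The cells were unsorted, of 129/Ola background and unmodified as far as the labels say, and came from the lines E14, HVJu5.1 and HVJu9.3. Serum/LIF and KOSR/LIF had 1 sample of each line, whereas for the first 4 replicates of 2i/LIF the title and the source name disagree on the line. Nothing used here says if samples of 1 line in 2i/LIF were grown as separate cultures, and p-values therefore reflect only the spread among these samples.

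The 11 naive ES cell markers were well above background on every array, and their summed log2 level ran from 8.72 to 8.94 for serum/LIF, from 8.59 to 9.13 for 2i/LIF and from 7.51 to 8.05 for KOSR/LIF. Between 53.7% and 72.6% of probes were well above background on 10 arrays, against 43.7% on KOSR/LIF replicate 3, where the 75th percentile of intensity was 65.3 (176 to 538 on the others). That array also had the lowest mean correlation with its own medium (r = 0.934 across genes). Some of the results in which it was an extreme array are therefore given without it too. Per the file headers the arrays were scanned on 3 days, the second of which held only 2i/LIF replicate 2 and KOSR/LIF replicate 3.

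Polycomb repressive complex 2 (PRC2) adds methyl groups to a lysine on the tail of histone H3. Its catalytic subunit is Ezh1 or Ezh2, and Eed and Suz12 hold the enzyme together. Accessory subunits bring it to chromatin, with Jarid2 and Aebp2 in one form of the complex and a Polycomb-like protein such as Mtf2 or Phf19 in another. Canonical PRC1 reads that methyl mark through a Cbx subunit, Cbx2 and Cbx7 among them, and compacts chromatin. In ES cells the complexes sit mainly at CpG-rich promoters of silent developmental regulators.

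Levels below are log2 processed intensities relative to the 75th percentile of the same array, and levels of different genes are not comparable, because each comes from its own probe. Differences are on the log2 scale, each followed by its standard error (SE), from 1 limma fit over all 11 arrays, two-sided, with Benjamini-Hochberg adjusted p-values over the 16275 genes and a threshold of 0.05. Intervals are 95% intervals from that fit.

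The accessory subunits Phf19 and Jarid2 were the members that differed between media, both lower in 2i/LIF. Their RefSeq promoter windows (GRCm38.p6, 250 bases before to 50 bases after a transcript start, read 5′ to 3′ on the gene's strand) are shown together with that of Ezh2, the catalytic subunit, which passed in no comparison, to show what the starts of these genes look like. Capitals mark matches, on either strand, to 5 motifs searched: the E2F sites TTTCCCGC and TTTGGCGC, the YY1 site GCCATNTT, the ETS site CCGGAAG and the TCF/LEF site CTTTGAT. The windows are chr2:34913927-34914226 on the minus strand for Phf19, chr13:44730524-44730823 and chr13:44731021-44731320 on the plus strand for 2 starts of Jarid2, and chr6:47594981-47595280 on the minus strand for Ezh2.
Phf19: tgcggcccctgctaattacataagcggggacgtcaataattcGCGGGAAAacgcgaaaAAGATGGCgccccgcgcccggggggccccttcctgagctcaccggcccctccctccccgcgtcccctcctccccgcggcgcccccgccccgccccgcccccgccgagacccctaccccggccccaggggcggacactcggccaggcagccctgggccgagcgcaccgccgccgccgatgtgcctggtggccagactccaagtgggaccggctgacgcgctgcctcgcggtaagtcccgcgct
Jarid2, first start: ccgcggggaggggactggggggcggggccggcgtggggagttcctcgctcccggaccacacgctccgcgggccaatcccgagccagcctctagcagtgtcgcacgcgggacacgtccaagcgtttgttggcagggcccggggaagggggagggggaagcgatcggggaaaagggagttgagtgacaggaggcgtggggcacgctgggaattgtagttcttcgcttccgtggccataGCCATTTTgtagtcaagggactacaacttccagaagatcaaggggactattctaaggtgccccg
Jarid2, second start: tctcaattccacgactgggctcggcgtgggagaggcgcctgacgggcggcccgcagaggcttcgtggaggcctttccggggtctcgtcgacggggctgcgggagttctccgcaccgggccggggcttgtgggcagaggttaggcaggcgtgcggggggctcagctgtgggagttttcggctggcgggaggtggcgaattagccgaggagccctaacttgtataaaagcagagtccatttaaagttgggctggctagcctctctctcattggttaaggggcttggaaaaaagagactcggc
Ezh2: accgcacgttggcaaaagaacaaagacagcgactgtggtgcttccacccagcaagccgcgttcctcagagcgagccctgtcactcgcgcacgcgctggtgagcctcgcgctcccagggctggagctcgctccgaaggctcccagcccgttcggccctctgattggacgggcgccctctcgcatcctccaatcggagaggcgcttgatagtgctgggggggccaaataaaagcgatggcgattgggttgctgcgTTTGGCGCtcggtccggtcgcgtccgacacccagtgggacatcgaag

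All 4 windows were rich in CpG, with 38 in Phf19, 24 and 23 in Jarid2 and 31 in Ezh2, against a median of 7 over 32851 windows of the same length. The Phf19 window held an E2F match (TTTCCCGC, found in 1.07% of all windows) and a YY1 match (GCCATNTT, 6.05%), both as the reverse complement, which begin at positions -208 and -192 with the first transcribed base as 1. The first Jarid2 window held a YY1 match at -14 and the second none, and the Ezh2 window held the other E2F form (TTTGGCGC, 0.514%) at 4. Among the 13 windows of 9 members, 2 held TTTCCCGC (Phf19 and Suz12), and none held the ETS motif (8.86% of all windows) or the TCF/LEF motif (3.73%). The motifs were chosen after the sequences had been seen, and a match describes letters in these windows and no binding site.

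In 2i/LIF against serum/LIF, Phf19 and Jarid2 fell and none of the other 8 members passed the threshold. That is 2 of 10 members (20%), beside 16.7% of all genes tested (6.75% higher and 9.98% lower), so the share called was close to that of the array as a whole. The members' median difference was -0.13 (0.03 over all genes) and their median absolute difference 0.28 (0.37 over all genes). In 2i/LIF against KOSR/LIF the 2 genes that fell were again Phf19 and Jarid2 (20% of members, beside 14.7% of all genes, 5.95% higher and 8.71% lower), with a median difference over members of 0.07 (0.02 over all genes). These comparisons share the 5 arrays of 2i/LIF.

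Between KOSR/LIF and serum/LIF, limma called 0 of 10 members, beside 4.58% of all genes (386 higher, 2.37%, and 359 lower, 2.21%). Under normexp background correction that split was 142 higher and 232 lower, and under quantile normalization it was 250 and 358. One member, Eed, had an unadjusted p under 0.05, beside 18.7% of all genes. The same comparison called 1 of 10 members, Cbx7, once KOSR/LIF replicate 3 was left out. Among all genes that setting called 631, against 745 with all arrays. The members' median difference was -0.22 (-0.03 over all genes).

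**Figure D1:**
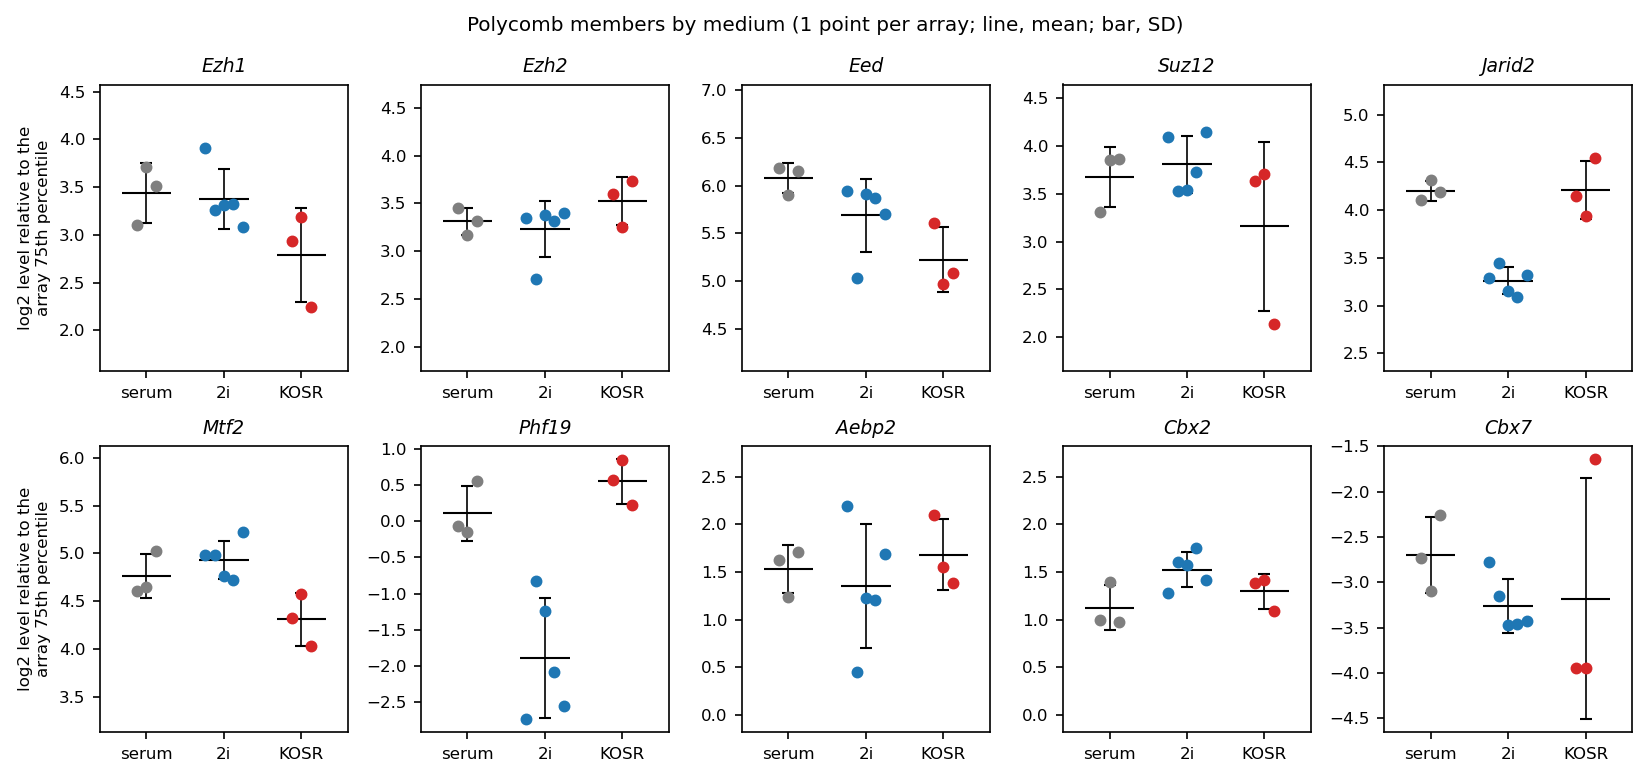
Log2 level of each Polycomb member relative to the array's 75th percentile (vertical axis, own range in each panel) in serum/LIF, 2i/LIF and KOSR/LIF, with 1 point per array, a line at the mean and a bar of 1 SD. All 5 points of 2i/LIF lie below those of both other media for Jarid2 and Phf19, and KOSR/LIF replicate 3 is the low point for Suz12 (2.14) and the high point for Cbx7 (-1.64).

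Among the core subunits of PRC2, no member passed the threshold in any comparison. Ezh2, the main methyltransferase of dividing cells, had levels of 3.45, 3.17 and 3.32 in serum/LIF, of 3.35, 2.71, 3.38, 3.32 and 3.4 in 2i/LIF, and of 3.6, 3.25 and 3.74 in KOSR/LIF. The media overlapped, and 2i/LIF replicate 2 was the lowest of all arrays. The difference between 2i/LIF and serum/LIF was -0.08 ± 0.23 (95% interval -0.58 to 0.42, adjusted p = 0.894), so a change of Ezh2 by a factor of 2 lies outside the interval. KOSR/LIF minus serum/LIF was 0.22 ± 0.25 (-0.34 to 0.77, adjusted p = 0.68).

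Ezh1, the paralogue that is more abundant in resting cells, was read by 3 probes. The brightest gave 3.1, 3.71 and 3.51 in serum/LIF, 3.91, 3.26, 3.31, 3.32 and 3.08 in 2i/LIF, and 2.94, 3.19 and 2.24 in KOSR/LIF. Serum/LIF and 2i/LIF covered the same range, and KOSR/LIF replicate 3 lay below every other array. The difference was -0.07 ± 0.28 (-0.67 to 0.54, adjusted p = 0.934) for 2i/LIF minus serum/LIF and -0.65 ± 0.31 (-1.33 to 0.03, adjusted p = 0.289) for KOSR/LIF minus serum/LIF. Without KOSR/LIF replicate 3 the latter was -0.38 ± 0.29 (adjusted p = 0.594). A second probe gave 0.03 ± 0.29 and -0.36 ± 0.32 for the same comparisons, and the remaining probe was well above background on 7 of 11 arrays.

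Eed, the subunit that binds the methyl mark, had levels of 6.19, 5.9 and 6.15 in serum/LIF, of 5.94, 5.03, 5.91, 5.87 and 5.7 in 2i/LIF, and of 5.61, 4.97 and 5.09 in KOSR/LIF. Every KOSR/LIF array lay below every serum/LIF array, while 2i/LIF overlapped both. KOSR/LIF minus serum/LIF was -0.86 ± 0.29 (-1.5 to -0.23), which did not pass after adjustment (adjusted p = 0.126). The difference between 2i/LIF and serum/LIF was -0.39 ± 0.26 (-0.96 to 0.17, adjusted p = 0.396).

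Suz12, which PRC2 needs for its assembly, had levels of 3.31, 3.85 and 3.86 in serum/LIF, of 4.09, 3.53, 3.54, 3.73 and 4.15 in 2i/LIF, and of 3.63, 3.71 and 2.14 in KOSR/LIF. All but KOSR/LIF replicate 3 lay within 3.31 to 4.15. The difference was 0.14 ± 0.35 (-0.64 to 0.91, adjusted p = 0.881) for 2i/LIF minus serum/LIF and -0.51 ± 0.4 (-1.38 to 0.35, adjusted p = 0.524) for KOSR/LIF minus serum/LIF. Without KOSR/LIF replicate 3 the latter was 0 ± 0.28 (adjusted p = 0.998).

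**Figure D2:**
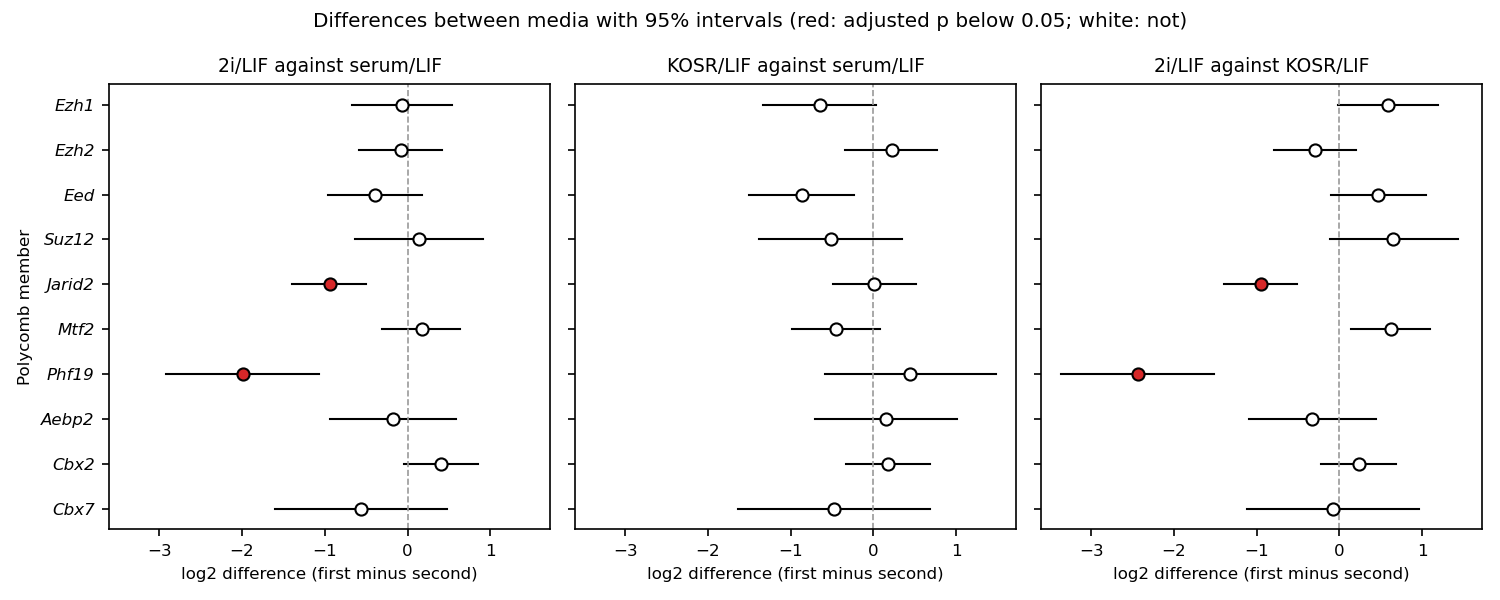
Log2 difference of each member between media (horizontal axis, first medium minus second) with its 95% interval from the limma fit over 11 arrays, 1 panel per comparison; red points have an adjusted p under 0.05. Only Jarid2 and Phf19 are red, in both comparisons with 2i/LIF, and no point is red in KOSR/LIF against serum/LIF.

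Phf19 is a Polycomb-like protein that reads a methyl mark of active genes and helps PRC2 to enter them. Its levels were -0.07, -0.15 and 0.55 in serum/LIF, -2.74, -0.82, -1.24, -2.08 and -2.55 in 2i/LIF, and 0.57, 0.85 and 0.23 in KOSR/LIF. Each 2i/LIF array lay below all 6 others, although 2i/LIF itself spread widely (mean -1.88 ± 0.83 SD, n = 5). The single Phf19 probe was well above background on all 11 arrays. Phf19 fell by 1.99 ± 0.42 in 2i/LIF against serum/LIF, 3.98-fold (95% interval -2.92 to -1.07, adjusted p = 0.00642). Against KOSR/LIF it fell by 2.43 ± 0.42, 5.4-fold (-3.36 to -1.51, adjusted p = 0.0025). KOSR/LIF and serum/LIF did not differ beyond their spread (0.44 ± 0.47, -0.59 to 1.48, adjusted p = 0.649). In these bulk samples, fewer cells with the transcript and less of it per cell cannot be told apart.

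With scan day as a block, Phf19 in 2i/LIF was -2.03 ± 0.42 against serum/LIF (adjusted p = 0.00897). Within the first scan day it was -1.55 ± 0.31 (adjusted p = 0.0307). On the last scan day 1 array of serum/LIF and 2 of 2i/LIF differed by -3.19, a value given without a test. Against KOSR/LIF it was -2.19 ± 0.44 with scan day as a block (adjusted p = 0.0101) and -2.37 ± 0.31 within the first day (adjusted p = 0.0117). With the replicate number as a block it was -1.71 against serum/LIF (adjusted p = 0.0492).

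Jarid2, a catalytically inactive member of the JmjC demethylase family that helps to recruit and activate PRC2, had levels of 4.1, 4.31 and 4.19 in serum/LIF. It read 3.29, 3.45, 3.15, 3.09 and 3.32 in 2i/LIF and 4.15, 3.94 and 4.54 in KOSR/LIF. No 2i/LIF array reached the lowest array of either other medium, and the arrays of 2i/LIF lay close together (mean 3.26 ± 0.14 SD, n = 5). Jarid2 fell by 0.94 ± 0.2 in 2i/LIF against serum/LIF, 1.92-fold (95% interval -1.39 to -0.5, adjusted p = 0.00701). Against KOSR/LIF it fell by 0.95 ± 0.2, 1.93-fold (-1.4 to -0.51, adjusted p = 0.00821). KOSR/LIF minus serum/LIF was 0.01 ± 0.23 (-0.49 to 0.51, adjusted p = 0.986).

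With scan day as a block, Jarid2 in 2i/LIF was -1.03 ± 0.15 against serum/LIF (adjusted p = 0.00169) and -0.95 ± 0.16 against KOSR/LIF (adjusted p = 0.00441). Within the first scan day the differences were -1.09 ± 0.19 (adjusted p = 0.0187) and -0.93 ± 0.19 (adjusted p = 0.0335). With the replicate number as a block neither difference of Jarid2 passed (-0.91, adjusted p = 0.0869, against serum/LIF and -0.92, adjusted p = 0.0978, against KOSR/LIF). On the last scan day the lone serum/LIF array and the 2 of 2i/LIF differed by -0.89. Under normexp correction the difference from KOSR/LIF was -0.66 ± 0.23 and did not pass (adjusted p = 0.0885).

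Mtf2, the other Polycomb-like protein of the list and a main recruiter of PRC2 to CpG islands in ES cells, had levels of 4.61, 4.65 and 5.03 in serum/LIF, of 4.98, 4.98, 4.76, 4.72 and 5.22 in 2i/LIF, and of 4.32, 4.58 and 4.03 in KOSR/LIF. Each KOSR/LIF array lay below all arrays of the other media. The difference was 0.62 ± 0.22 for 2i/LIF minus KOSR/LIF (0.14 to 1.09, adjusted p = 0.0831) and 0.17 ± 0.22 for 2i/LIF minus serum/LIF (-0.31 to 0.64, adjusted p = 0.726), neither past the threshold. KOSR/LIF minus serum/LIF was -0.45 ± 0.24 for Mtf2 (adjusted p = 0.354). A second, dim Mtf2 probe was well above background on 8 of 11 arrays.

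Aebp2, a zinc finger protein found with Jarid2 in PRC2, had levels of 1.63, 1.24 and 1.71 in serum/LIF, of 2.19, 0.45, 1.23, 1.21 and 1.69 in 2i/LIF, and of 2.1, 1.55 and 1.39 in KOSR/LIF. The 5 arrays of 2i/LIF alone spanned the whole range. The difference was -0.17 ± 0.35 (-0.94 to 0.59, adjusted p = 0.843) for 2i/LIF minus serum/LIF, and a second probe gave 0.17 ± 0.29 (adjusted p = 0.804).

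Of the PRC1 readers, Cbx7, the main Cbx subunit of undifferentiated ES cells, was measured by a dim but detected probe. Its levels were -2.73, -3.1 and -2.26 in serum/LIF, -2.78, -3.15, -3.47, -3.46 and -3.43 in 2i/LIF, and -3.95, -3.95 and -1.64 in KOSR/LIF. KOSR/LIF replicates 1 and 2 were the lowest of all 11 arrays and replicate 3 the highest. The difference was -0.56 ± 0.47 (-1.6 to 0.48, adjusted p = 0.539) for 2i/LIF minus serum/LIF. KOSR/LIF minus serum/LIF was -0.48 ± 0.53 (adjusted p = 0.658) with all arrays and -1.25 ± 0.3 (adjusted p = 0.0491) without KOSR/LIF replicate 3. With slide as a fixed block Cbx7 passed in both comparisons with serum/LIF, at -0.54 ± 0.15 for 2i/LIF (adjusted p = 0.0458) and -1.03 ± 0.18 for KOSR/LIF (adjusted p = 0.0275). KOSR/LIF replicate 3 and 2i/LIF replicates 2 and 5 were each alone on a slide, so this block takes them out of the differences. For KOSR/LIF it is therefore not separate from leaving out replicate 3.

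Cbx2, a Cbx subunit that compacts chromatin and is better known from differentiating cells, had levels of 1.0, 1.4 and 0.98 in serum/LIF, of 1.28, 1.61, 1.57, 1.75 and 1.42 in 2i/LIF, and of 1.38, 1.42 and 1.09 in KOSR/LIF. The media overlapped. The difference of 0.4 ± 0.2 for 2i/LIF minus serum/LIF did not pass (-0.04 to 0.85, adjusted p = 0.241).

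Across the 11 arrays, Jarid2 and Phf19 varied together (Pearson's r = 0.82), as did Ezh1 and Suz12 (0.82) and Suz12 and Mtf2 (0.79). The most opposed pair was Jarid2 and Cbx2 (-0.7). These points share arrays, media and the scaling of each array, and the lowest values of Ezh1, Suz12 and Mtf2 were all those of KOSR/LIF replicate 3. Among all genes tested, the patterns most like Phf19 over the 11 arrays were those of Mrc2 (r = 0.982), Sgce (0.972) and Krt20 (0.965). Those most like Jarid2 were Gsap (0.982), St8sia3 (0.971) and Pcsk1n (0.966).

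Some other subunits of the 2 complexes differed by more than any of the 10 members. Of 7 further PRC2 subunits tested, 1 passed, Ezhip, which encodes an inhibitor of the PRC2 methyltransferase, in both comparisons with KOSR/LIF (14.3%, beside 4.58% and 14.7% of all genes). Ezhip had levels of -0.23, -0.8 and -0.66 in serum/LIF, -0.15, -1.09, -0.94, -2.16 and 0.16 in 2i/LIF, and 3.12, 2.46 and 2.44 in KOSR/LIF. Every KOSR/LIF array stood well above the others. Ezhip was higher in KOSR/LIF than in serum/LIF by 3.24 ± 0.5, 9.43-fold (adjusted p = 0.00652), and in 2i/LIF 11.4-fold lower than in KOSR/LIF (-3.51 ± 0.45, adjusted p = 0.000391), and both passed in every alternative tried. By the brightest probe of each gene, Rbbp4, Rbbp7, Phf1, Epop, Lcor and Lcorl did not pass in any comparison. In 2i/LIF against serum/LIF limma called 0 of the 7 (16.7% of all genes), with 0 at an unadjusted p under 0.05 (27% of all genes). A list of 7 is too short to tell these shares apart. The probes of Lcorl disagreed: a dimmer one fell in 2i/LIF against serum/LIF (-1.44, adjusted p = 0.00786), whereas the brightest gave -0.24 (adjusted p = 0.771).

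**Figure D3:**
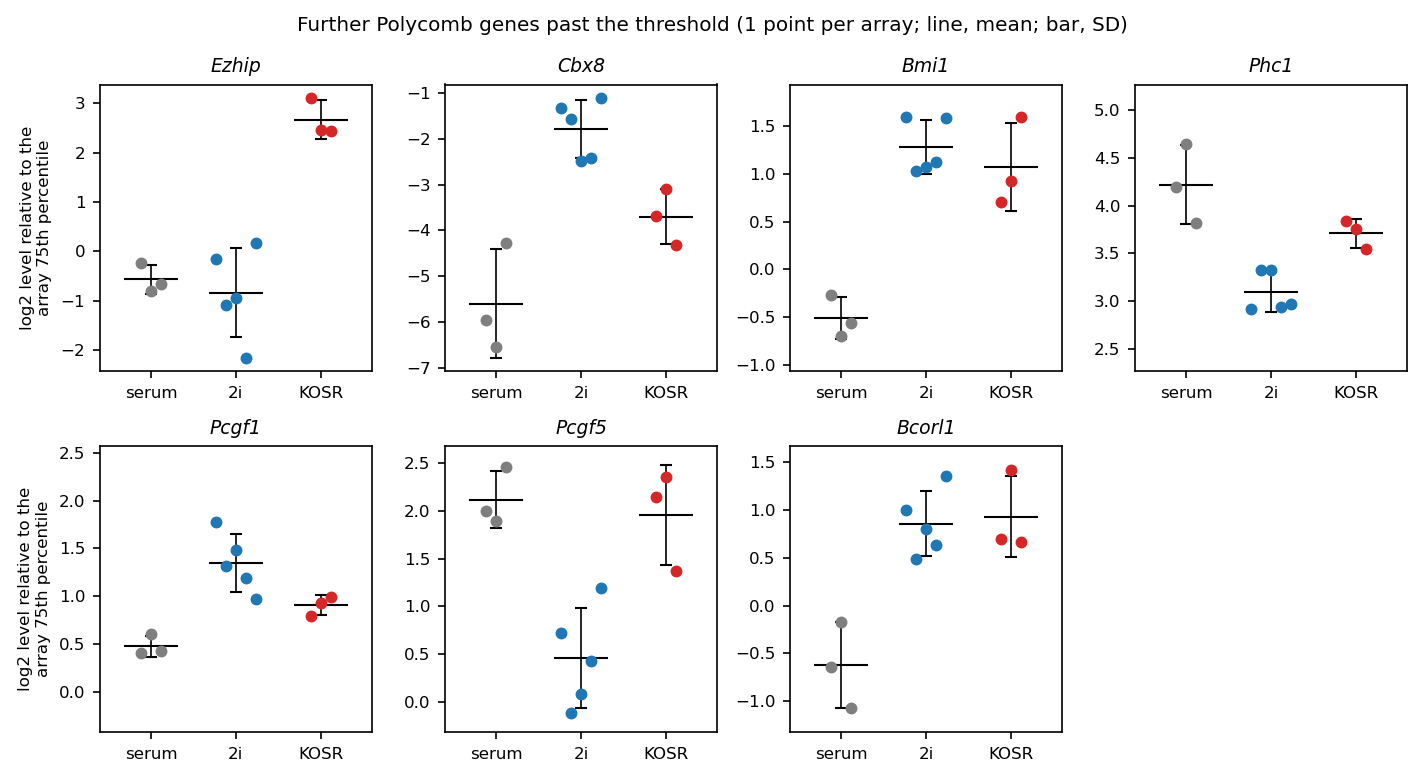
Log2 level relative to the array's 75th percentile (vertical axis, own range in each panel) of 7 further Polycomb genes in the 3 media, with 1 point per array, a line at the mean and a bar of 1 SD. The KOSR/LIF points of Ezhip stand apart (2.44 to 3.12), and the 2i/LIF points lie highest for Cbx8 (-2.48 to -1.09).

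Of the other canonical PRC1 genes described here, Cbx8 and Bmi1 rose and Phc1 fell in 2i/LIF against serum/LIF. Cbx8, a Cbx reader of the methyl mark, had levels of -5.97, -6.56 and -4.27 in serum/LIF, where 1 of 3 arrays was well above background. It read -1.33, -1.57, -2.48, -2.42 and -1.09 in 2i/LIF and -3.68, -3.1 and -4.31 in KOSR/LIF. The 2i/LIF arrays were the highest, and Cbx8 rose by 3.82 ± 0.52 against serum/LIF (adjusted p = 0.000382), or by 2.54 once signals below background were set to the array's lowest detected signal (dim signals raised). Under normexp correction the rise was 1.1 (adjusted p = 0.0086). Against KOSR/LIF it rose by 1.92 ± 0.52 (adjusted p = 0.0273), which did not pass when any 1 of several arrays was left out (1.61, adjusted p = 0.113, without KOSR/LIF replicate 3), under normexp (0.48, adjusted p = 0.279) or with the replicate block (1.9, adjusted p = 0.133).

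Bmi1, a PRC1 core subunit of the Pcgf family, had levels of -0.27, -0.7 and -0.56 in serum/LIF, 1.6, 1.03, 1.07, 1.12 and 1.58 in 2i/LIF, and 0.7, 0.92 and 1.59 in KOSR/LIF. Serum/LIF was the low medium here. Bmi1 rose by 1.79 ± 0.26 in 2i/LIF (adjusted p = 0.000588) and by 1.58 ± 0.29 in KOSR/LIF (adjusted p = 0.0124), and its second probe rose by 2.05 and 1.88. Without serum/LIF replicate 2, the KOSR/LIF difference was 1.49 and did not pass (adjusted p = 0.0528). Phc1, a scaffold subunit of PRC1, fell by 1.12 ± 0.23 in 2i/LIF against serum/LIF (adjusted p = 0.0055), with levels of 4.19, 4.65 and 3.82 in serum/LIF and of 2.92, 3.32, 3.33, 2.94 and 2.97 in 2i/LIF. Cbx6 was higher in 2i/LIF than in KOSR/LIF by 0.71 ± 0.19 (adjusted p = 0.0291). It did not pass when, for example, KOSR/LIF replicate 2 was left out (0.64, adjusted p = 0.103).

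Of 13 genes of variant PRC1 tested, which bind chromatin without reading the methyl mark, Pcgf1 and Bcorl1 rose and Pcgf5 fell in 2i/LIF against serum/LIF (23.1%, beside 16.7% of all genes, median difference 0.03). The other comparisons each called 1 (7.69%, beside 4.58% of all genes in KOSR/LIF against serum/LIF and 14.7% in 2i/LIF against KOSR/LIF). Pcgf5, which defines one variant complex, had levels of 2.0, 1.9 and 2.46 in serum/LIF, 0.72, -0.12, 0.08, 0.43 and 1.19 in 2i/LIF, and 2.15, 2.36 and 1.37 in KOSR/LIF. All 2i/LIF arrays were below the others. Pcgf5 fell by 1.66 ± 0.33 against serum/LIF (adjusted p = 0.0047) and fell by 1.5 ± 0.33 against KOSR/LIF (adjusted p = 0.0103; 0.0513 without KOSR/LIF replicate 2). Pcgf1, of the complex with the CpG-binding Kdm2b, rose by 0.87 ± 0.22 (adjusted p = 0.0153), and did not pass without serum/LIF replicate 1 (0.0748) or serum/LIF replicate 3 (0.0636). Bcorl1, a corepressor in that complex, rose by 1.48 ± 0.29 in 2i/LIF (adjusted p = 0.004) and by 1.56 ± 0.33 in KOSR/LIF against serum/LIF (adjusted p = 0.0217). The latter was not called by its second probe (0.61, adjusted p = 0.23) and did not pass without serum/LIF replicate 1 (0.0854), serum/LIF replicate 3 (0.0839) or KOSR/LIF replicate 2 (0.0782), nor under normexp (0.0767) or with the replicate block (0.0533). In 2i/LIF against serum/LIF, Bcorl1 did not pass within the first scan day (1.12, adjusted p = 0.0721). On the last scan day, with its lone serum/LIF array, the differences were -0.88 for Phc1, 0.96 for Pcgf1 and -1.5 for Pcgf5. These lie near those over all arrays and are given without a test. Over 30 alternative settings, the call in 2i/LIF against serum/LIF was lost in 2 for Phc1, in 3 for Pcgf1 and in 1 for Pcgf5.

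Among 10 antagonists of Polycomb, Asxl1 and Asxl3, partners of the H2A deubiquitinase Bap1, fell in 2i/LIF against serum/LIF (-0.85 ± 0.22, adjusted p = 0.02, and -1.36 ± 0.42, adjusted p = 0.0458), and the demethylases Kdm6a and Kdm6b did not pass. That is 20% of the list, beside 16.7% of all genes. Both calls were lost when 1 array was left out, with adjusted p-values of 0.0796 and 0.204 without serum/LIF replicate 1. In KOSR/LIF against serum/LIF limma called 0 of 10 (4.58% of all genes), with 3 at an unadjusted p under 0.05 (18.7% of all genes). In 2i/LIF against KOSR/LIF it called 0 of 10 (14.7% of all genes), with 0 unadjusted (27.2% of all genes). Of 11 genes of the activating Trithorax and COMPASS complexes, Wdr5 rose (0.85 ± 0.26, adjusted p = 0.0443) and Setd1b fell (-1.08 ± 0.32, adjusted p = 0.0396) in 2i/LIF against serum/LIF (18.2%, beside 16.7% of all genes). Neither passed without serum/LIF replicate 1 (0.154 and 0.0859). Wdr5 was also higher in 2i/LIF than in KOSR/LIF (1.01 ± 0.26, adjusted p = 0.0218, and 0.0734 without KOSR/LIF replicate 3). It was the only 1 of the 11 called there (9.09%, beside 14.7% of all genes). In KOSR/LIF against serum/LIF 0 of the 11 passed (4.58% of all genes), with 0 unadjusted (18.7% of all genes).

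Genes that Polycomb keeps silent in ES cells moved in both directions. The list holds 44 developmental regulators, of which 37 were tested. Against serum/LIF, 4 of them rose in 2i/LIF and 5 fell (24.3%, beside 16.7% of all genes), with a median of -0.15. Gsc, a homeobox gene of the gastrula organiser, had levels of -4.41, -3.39 and -3.39 in serum/LIF, -0.04, 0.11, -0.77, -0.75 and 0.46 in 2i/LIF, and -4.19, -2.91 and -2.82 in KOSR/LIF. It was highest in 2i/LIF on every array, by 3.53 ± 0.41 over serum/LIF (1.89 under normexp correction). Hand1, a factor of trophoblast and heart, was well above background on all serum/LIF arrays and on no 2i/LIF array, and was at least 11.7-fold lower in 2i/LIF on the processed signals (adjusted p = 0.000225). Under normexp correction the difference of Hand1 was smaller than that bound (-1.51, adjusted p = 0.00249). Pax6, a neural and eye factor, was well above background on 1 of 5 arrays of 2i/LIF and fell by 3.58 ± 0.42 (adjusted p = 0.000161). With dim signals raised it fell by 2.56. Under normexp correction the difference of Pax6 was -0.94 and did not pass (adjusted p = 0.154). Tbx20, a heart factor, was at least 2.11-fold lower on the processed signals (adjusted p = 0.00045), but under normexp the difference was -0.44 and did not pass (adjusted p = 0.679).

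Between 2i/LIF and KOSR/LIF, 2 targets rose in 2i/LIF and 8 fell (27%, beside 14.7% of all genes), with a median of -0.5. For 1 of the 8, Tbx20, no array of either medium was well above background, so no fold is given. Irx3, a homeobox gene of neural tissue and limb that was well above background on 2 of 5 arrays of 2i/LIF, fell by 4.78 ± 0.71 (adjusted p = 0.000976; -4.0 with dim signals raised and -2.0 under normexp). Gata6, a factor of primitive endoderm, had levels of 1.9, 1.17 and -2.36 in KOSR/LIF against -4.66, -2.24, -3.99, -5.77 and -3.37 in 2i/LIF. In 2i/LIF it fell by 4.24 ± 0.98 (adjusted p = 0.0127), which did not pass without KOSR/LIF replicate 1 (adjusted p = 0.0623), KOSR/LIF replicate 2 (0.0561) or with the replicate block (0.0667). Without KOSR/LIF replicate 3, the lowest of its medium, Gata6 fell by 5.54 (adjusted p = 0.00225), and under normexp it fell by 2.56 (adjusted p = 0.000615). Hand1 was lower by at least 9.55-fold on the processed signals (adjusted p = 0.000495) and by less under normexp (-1.77, adjusted p = 0.00095). Pax6 fell by 3.5 (adjusted p = 0.000277). With dim signals raised it fell by 2.48, and under normexp the difference was -1.1 (adjusted p = 0.0834). In KOSR/LIF against serum/LIF 1 target passed (2.7%, beside 4.58% of all genes), Gata4, another endoderm factor (2.16 ± 0.38, adjusted p = 0.0101). It did not pass without serum/LIF replicate 1 (0.0534). Without KOSR/LIF replicate 3 the comparison called 3 of 37 targets, all higher. Among all genes that setting called 631, against 745 with all arrays.

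**Figure D4:**
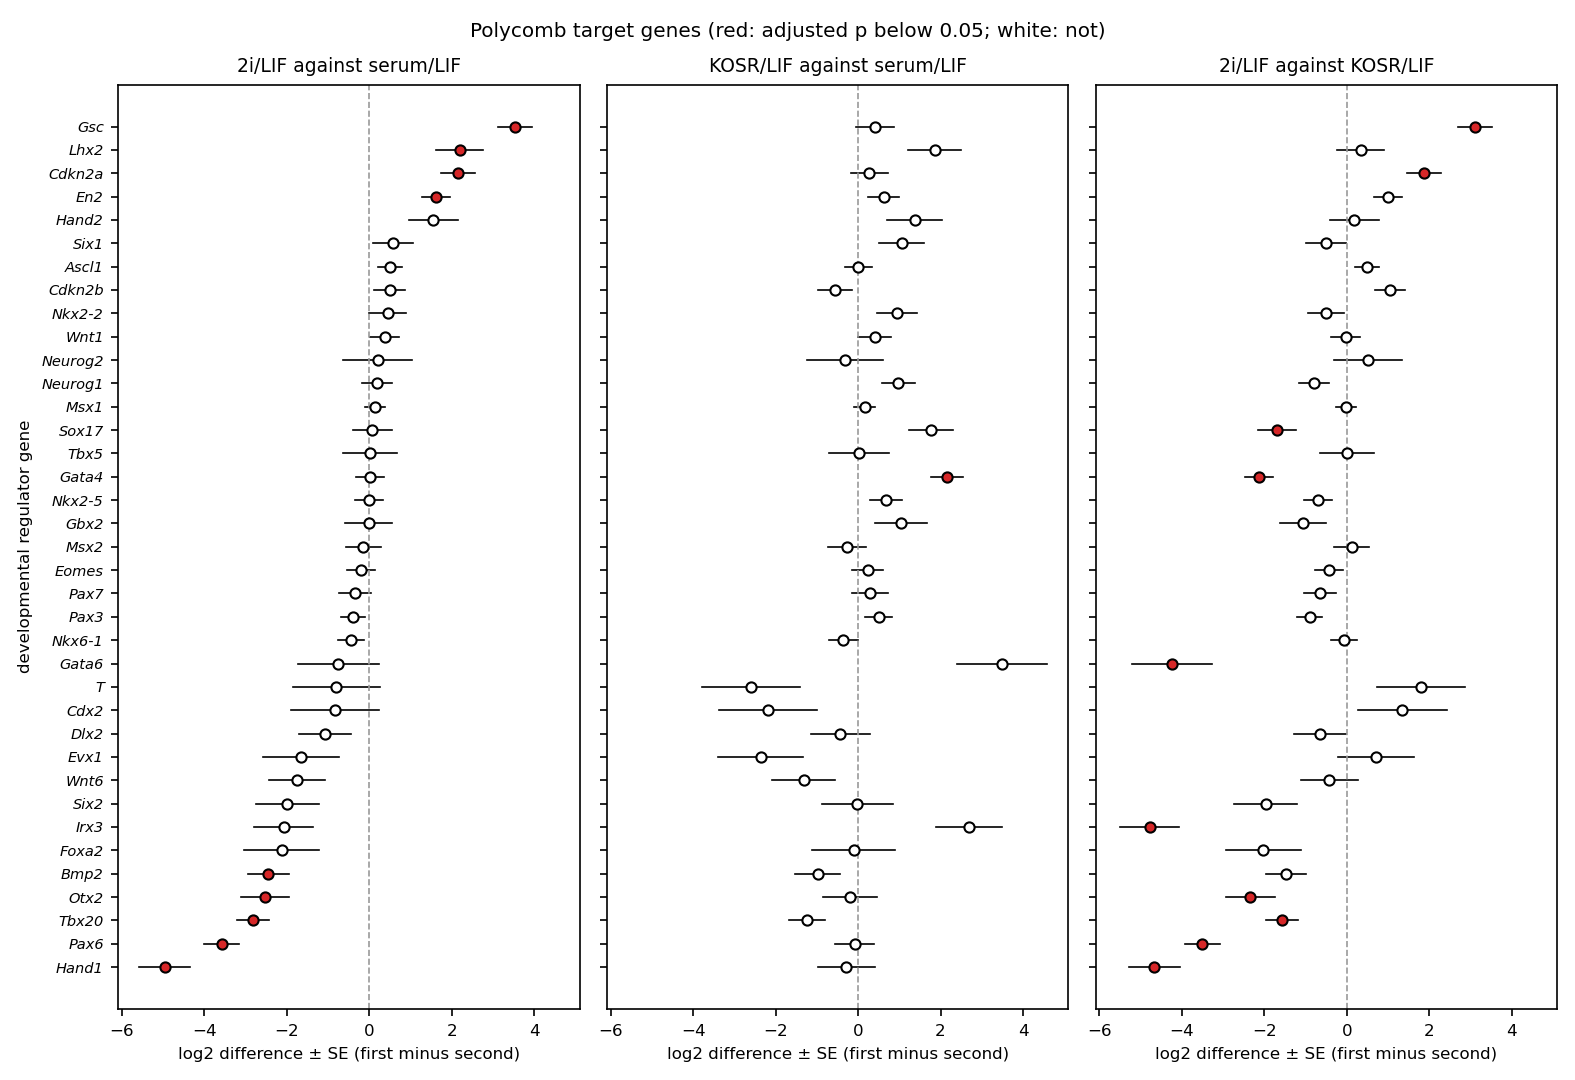
Log2 difference ± SE of the 37 tested Polycomb targets (vertical axis, ordered by the first panel) between media, first minus second on the horizontal axis, with red for an adjusted p under 0.05. For 2i/LIF against serum/LIF 4 lie to the right and 5 to the left in red, and in KOSR/LIF against serum/LIF only Gata4 is red. In 2i/LIF against KOSR/LIF 2 lie to the right and 8 to the left in red. The red points of Hand1, Tbx20, Pax6, Bmp2, Irx3, Gata6, Sox17 and Gsc include signals not well above background.

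Markers of other cell types differed between the media as well. Of the 11 naive markers, 4 fell in KOSR/LIF against serum/LIF (36.4%, beside 4.58% of all genes). In 2i/LIF 8 of them were higher than in KOSR/LIF (72.7%, beside 14.7% of all genes). Against serum/LIF 2 were higher in 2i/LIF (18.2%, beside 16.7%). The 8 primed epiblast markers had summed log2 levels of 6.34 to 7.08 for serum/LIF. They summed to 3.98 to 5.49 for 2i/LIF and to 5.22 to 6.41 for KOSR/LIF. In 2i/LIF against serum/LIF 5 of 8 fell (62.5%, beside 16.7% of all genes). In 2i/LIF against KOSR/LIF 5 fell and 1 rose (75%, beside 14.7%). In KOSR/LIF against serum/LIF 2 fell (25%, beside 4.58%). Trophoblast markers summed to 6.52 to 7.5, 4.07 to 4.53 and 4.03 to 5.18 in the same order. Of 10, 3 were lower in 2i/LIF against serum/LIF (30%, beside 16.7% of all genes). The other comparisons each called 2, all lower (20%). Beside that stood 4.58% of all genes in KOSR/LIF against serum/LIF and 14.7% in 2i/LIF against KOSR/LIF. Primitive endoderm markers summed to 3.53 to 4.22, 3.45 to 4.4 and 2.72 to 5.56. Of 11, 8 were lower in 2i/LIF against KOSR/LIF, Gata6 among them (72.7%, beside 14.7% of all genes). Against serum/LIF 2 were lower in 2i/LIF (18.2%, beside 16.7%) and 1 was higher in KOSR/LIF (9.09%, beside 4.58%). Fibroblast markers summed to 3.9 to 5.31, 3.49 to 5.77 and 5.13 to 5.58. Of 10, 4 were lower in 2i/LIF in both its comparisons (40%). Beside that stood 16.7% of all genes against serum/LIF and 14.7% against KOSR/LIF. In KOSR/LIF against serum/LIF 1 was higher (10%, beside 4.58%). Each sum is set mostly by its brightest probes, so its range does not measure the share of a cell type. In 2i/LIF the fibroblast marker Vim alone read 3.09 to 5.71, and the primitive endoderm marker Lama1 3.31 to 4.31. In serum/LIF the trophoblast marker Krt18 read 5.93 to 7.11. The markers Afp (primitive endoderm) and Postn (fibroblast) did not pass the filter on dim probes. Hand1, Cdx2 and Eomes count both as trophoblast markers and as Polycomb targets, as do Gata4, Gata6, Sox17 and Foxa2 for primitive endoderm and Otx2 and T for primed epiblast. The part of these cell types in the differences of Phf19, Jarid2 and the other Polycomb genes was not tested.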

How the data were processed

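RNA was extracted by the authors with Qiagen RNeasy kits and labelled with Cy3, per the labels' protocols. Per the file headers, Agilent Feature Extraction 11.0.1.1 made the deposited intensity values, which are linear and had background subtracted array by array. Non-control spots without outlier flags were averaged by probe. Of 55681 probes, 33 were left out because every spot was flagged on an array. Of the rest, 27636 were named by RefSeq accession through GRCm38.p6 names. The 75th percentile of each array was subtracted after log2. Probes well above background on at least 3 of 11 arrays entered, and the brightest probe stood for its gene (16275 genes). One fit (limma 3.58.1, R 4.3.3, no covariates) gave all comparisons, with 8 residual and 3.52 prior degrees of freedom. It was tested on simulated data. The number of arrays limits the precision. A fold against a medium with no array well above background is a bound ("at least"), for which dim signals were set to the array's lowest detected signal.

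The members and lists were chosen with earlier results of these data known. All members are named in every comparison, up to 4 passing genes of each other Polycomb list, and the 3 genes most correlated with each passing member. One gene that this rule names is not reported here. Cbx2 had no promoter window. Alternatives covered background correction, scaling, filters, probes, blocks and left-out arrays. Normexp used the median signals in place of the planned mean signals. The deposited value table, also intensities, served as an alternative. Its making is not stated in these sources.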

Additional observations from a re-analysis of the deposited data

Results flagged for a closer look

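In 2i/LIF, 14 member probes were checked for an array far from the other 4, by a gap above 0.71 of the group's range, and 4 had one. Chance flags about 1 in 20 groups. Replicate 2 of 2i/LIF was the lowest for Eed, the subunit that binds the methyl mark (5.03), and for the methyltransferase Ezh2 (2.71), and the highest for the dimmest probe of Ezh1 (-2.35). Replicate 1 of 2i/LIF was the highest for the brightest Ezh1 probe (3.91). The 3 values of replicate 2 come from 1 array, so they are not independent of each other.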

How the results depend on the processing

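Over 30 alternative settings, 872 of 880 values of the members kept their side of the threshold, 4 lost a call, 4 gained one and none of the called values reversed, while 43 uncalled values changed sign. For the other named Polycomb genes 1024 of 1163 values kept theirs and 139 lost a call. These counts are not alike. Of the members only Phf19 and Jarid2 had a call to lose, whereas other genes were counted only in comparisons that called them. Phf19 ran from -3.19 to -1.42 in 2i/LIF against serum/LIF and kept its call in the settings run, of which that within scan day 3 had 1 serum/LIF array, assumed to vary like those of 2i/LIF. Members called in 2i/LIF against serum/LIF numbered 1 (Phf19) within scan day 3, and in 2i/LIF against KOSR/LIF 1 under normexp. In KOSR/LIF against serum/LIF 1 was called (Cbx7) with slide as a fixed block and without the 2 arrays of scan day 2, an alternative chosen after seeing the data. Both settings take KOSR/LIF replicate 3 out of the difference, so they repeat the call made without that array. Leaving out 1 array at a time gave 0 to 1 in KOSR/LIF against serum/LIF, and 2 throughout in the other comparisons.

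Genes called in 2i/LIF against serum/LIF (2722) numbered 1755 under normexp, 1730 with probes well above background on all 11 arrays and 1117 within scan day 3. In KOSR/LIF against serum/LIF (745) they numbered 374 under normexp, 451 with no filter, 493 with the 11-array filter, 1662 with slide as a random block and 225 (without serum/LIF replicate 1) to 915 with 1 array left out. In 2i/LIF against KOSR/LIF (2387) they numbered 1517, 1500 and, with the replicate block, 1408.

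By title, replicates 1, 2 and 3 of serum/LIF and 2i/LIF are the same lines in the same order, but by source name none of these 3 pairs shares a line, and in KOSR/LIF only replicate 2 keeps the line of its number by title. The pairing of 2i/LIF with the other media is therefore unsettled. For serum/LIF and KOSR/LIF both labels agree, and their replicates 1 and 3 of equal number are different lines. The replicate block therefore does not pair these media by line. With cell line as a block, by title or by source name, Jarid2 and Phf19 were called in both comparisons with 2i/LIF. No member was called in KOSR/LIF against serum/LIF with either line block. Deviations from the medium's mean correlated at -0.2 to 0.18 (median 0) over 9 pairs of equal number. With the replicate block the members called were 1 in 2i/LIF against serum/LIF (Phf19 at -1.71, adjusted p = 0.0492, and Jarid2 at -0.91, adjusted p = 0.0869) and 1 against KOSR/LIF (Jarid2 -0.92, adjusted p = 0.0978). Dim probes limit Cbx7 and Cbx8. Among the members, Jarid2, Phf19, Ezh2, Eed, Suz12, Cbx2 and Cbx7 each rest on a lone probe.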
